A study of Mus musculus with 14 samples.

Results

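Interferon-stimulated genes and the regulators that switch them on were followed in the 2 luminal populations of the mouse mammary gland. The 48 genes were taken from a list of symbols that holds interferon receptors, STAT and IRF transcription factors, RNA sensors and antiviral effectors, and 44 of them had a probe set with a single gene symbol, out of 22180 such genes on the arrays. Irf5, Gbp2 and Dtx3l share their probe set with a second gene symbol and Ifi44 had none in the annotation used, so these 4 genes were not analysed here. Luminal cells were sorted by flow cytometry as CD24-positive cells with or without the adhesion molecule ICAM-1, called Lu-pos (CD24+ ICAM1+) and Lu-neg (CD24+ ICAM1-), from 7 pools of mammary glands, with at least 12 glands in a pool. Basal cells, for which the study drew a separate gate, are labelled CD24+ ICAM1+ there as well. Antibodies to CD45, which marks leukocytes, and CD31, which marks endothelial cells, were in the same staining. The glands came from adult virgin females, 4 to 6 months old, of the strains BALB/cByJ JAX and C57Bl/6. No source used here gives the strain for a single pool, so strain and pool cannot be told apart. The labels name no transgene or agent for these samples, and every value is a mean over many pooled glands and sorted cells. A lower value can therefore come from fewer expressing cells or from less RNA per cell, and these cannot be told apart. RNA of each of the 14 samples was hybridised to 1 Affymetrix whole-transcript array, and levels are log2 intensities.

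Interferons are secreted proteins by which cells warn each other of infection. Type I interferons bind the receptor chains Ifnar1 and Ifnar2, and type II interferon binds Ifngr1 and Ifngr2. Receptor-bound JAK kinases then phosphorylate STAT proteins. A complex that holds Stat2 and Irf9 binds the interferon-stimulated response element (ISRE), and STAT dimers bind the gamma-activated site (GAS). Many of the genes so induced are also transcribed at a low tonic level in uninfected epithelium, and several IRF factors keep that level up or down.

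Promoter sequences of 5 of the genes are shown to set genes that were lower in Lu-pos cells beside genes that were not called, where all hold the letters of an interferon-responsive site. The sequences are the 250 bases before the annotated start, 5′ to 3′ on the strand of the gene, from RefSeq in build GRCm38.p6. Stat2, Ifitm2 and Irf1 were lower in Lu-pos cells, while Isg15 and Ifit1 did not pass the test. Capitals mark matches to the ISRE letters GAAANNGAAA, read on either strand, and in Irf1 to the GAS letters TTCNNNGAA, which read the same on both strands. Stat2 lies at chr10:128270248-128270497 on the plus strand, Ifitm2 at chr7:140955962-140956211 on the minus strand, Irf1 at chr11:53769764-53770013 on the plus strand, Isg15 at chr4:156200819-156201068 on the minus strand and Ifit1 at chr19:34640639-34640888 on the plus strand, each range covering the bases shown.
Stat2: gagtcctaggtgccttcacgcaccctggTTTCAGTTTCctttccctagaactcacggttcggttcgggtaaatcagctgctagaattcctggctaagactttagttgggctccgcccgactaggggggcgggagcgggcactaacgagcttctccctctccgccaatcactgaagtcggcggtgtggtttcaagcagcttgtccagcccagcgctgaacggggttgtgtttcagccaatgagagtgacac
Ifitm2: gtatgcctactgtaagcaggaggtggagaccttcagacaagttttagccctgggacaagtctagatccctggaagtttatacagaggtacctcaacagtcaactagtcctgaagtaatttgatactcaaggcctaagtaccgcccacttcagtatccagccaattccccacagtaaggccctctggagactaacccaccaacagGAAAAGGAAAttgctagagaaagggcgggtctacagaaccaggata
Irf1: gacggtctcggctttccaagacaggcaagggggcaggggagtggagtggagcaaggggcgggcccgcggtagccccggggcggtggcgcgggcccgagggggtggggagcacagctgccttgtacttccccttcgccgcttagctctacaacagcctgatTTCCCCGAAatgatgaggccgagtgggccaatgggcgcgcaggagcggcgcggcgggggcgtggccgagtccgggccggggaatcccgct
Isg15: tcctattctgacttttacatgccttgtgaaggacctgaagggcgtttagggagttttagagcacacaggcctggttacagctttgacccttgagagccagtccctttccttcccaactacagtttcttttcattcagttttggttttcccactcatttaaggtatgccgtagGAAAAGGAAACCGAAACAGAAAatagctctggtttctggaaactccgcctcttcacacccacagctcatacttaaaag
Ifit1: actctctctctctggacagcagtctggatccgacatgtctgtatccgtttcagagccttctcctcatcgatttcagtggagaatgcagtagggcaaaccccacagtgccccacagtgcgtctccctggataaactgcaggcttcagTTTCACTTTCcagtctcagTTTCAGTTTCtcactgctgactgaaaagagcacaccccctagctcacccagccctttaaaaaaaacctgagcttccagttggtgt

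The Stat2 match begins 222 bases before the start, the Ifitm2 match 46 bases before it and the GAS match of Irf1 90 bases before it. Isg15 holds 3 overlapping ISRE matches, the first of them 78 bases before the start, and Ifit1 holds 2, which begin 104 and 85 bases before it. The same letters were then searched in the windows from 250 bases before to 50 after each start of the 38 genes of the list that matched a promoter by symbol. ISRE letters were in at least 1 window of 17 of the 38 genes (44.7%), against 3.99% of all 27025 genes with such windows, and GAS letters in 13 (34.2%), against 9.55% of all genes. The list was chosen as interferon-stimulated genes and their regulators, so such an excess could be foreseen and is no result of these arrays. Among the genes with an ISRE match were 4 of 7 that were lower in Lu-pos cells, 0 of 3 that were higher and 12 of 24 that were not called. GAS letters were in 5 of the 7 lower, 2 of the 3 higher and 6 of the 24 uncalled genes. Oas2 and Usp18, which were also lower, matched no promoter by symbol. Some genes had several windows, with 10 for the 7 lower, 4 for the 3 higher and 27 for the 24 uncalled genes. By window, in the same order, ISRE letters were in 40%, 0% and 44.4% and GAS letters in 50%, 50% and 22.2%. In 2 of the 45 windows, those of Bst2 and Ifitm3, an ISRE and a GAS match overlapped. Such a match describes the letters of the window and is not a site of binding.

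**Figure D1:**
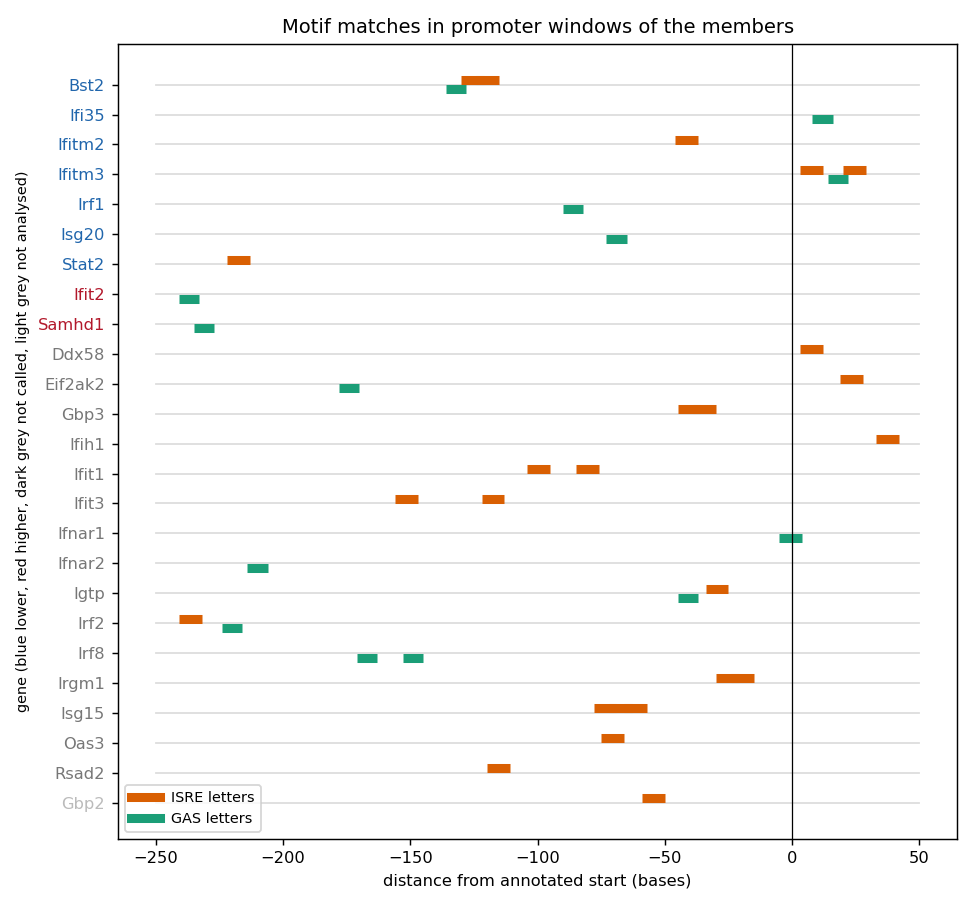
Matches of the ISRE (orange) and GAS (green) letters in the promoter windows of the listed genes, by distance in bases from the annotated start at 0; each grey line is the window of a gene with at least 1 match. Gene names are blue where the gene was lower in Lu-pos cells, red where it was higher and grey where it was not called or not analysed, and ISRE matches stand among both the lower and the uncalled genes.

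The arrays were checked before the genes were compared. A background level of 3.73 was set as the 95th percentile of the mean levels of 1373 olfactory and vomeronasal receptor genes, and 34 of the 44 genes had a mean above it. The ICAM-1 gene Icam1 was 2.17-fold higher in Lu-pos cells (adjusted p = 0.0403). The luminal keratin genes Krt8 and Krt18 had mean levels of 11.09 and 11.45 and were not called. Krt19, a further luminal keratin gene, was called lower in Lu-pos cells, with means of 10.08 in Lu-neg and 9.59 in Lu-pos arrays (limma, adjusted p = 0.0117). Array medians lay between 3.46 and 3.58. The Lu-pos array of pool 4 stood apart: the median of the 34 genes above background was 5.35 there and 5.65 to 6.37 on the other Lu-pos arrays, and the median of all 11029 genes above background was 5.34 there and 5.47 to 5.62 on the other 13 arrays. Without pool 4, 2 listed genes were higher and 8 lower, with the calls of Ifit2 and Usp18 lost. Of 14 macrophage and dendritic cell markers none was called by limma (3 at an unadjusted p under 0.05) and 3 lay above background, with a log2 of their summed level of 7.16 to 7.99 in Lu-neg and 7.47 to 7.90 in Lu-pos arrays, and the pan-leukocyte gene Ptprc had a mean of 3.0, under the background. Of 10 T, B and NK cell markers none was called (0 at an unadjusted p under 0.05) and 1 lay above background.

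Most of the 44 genes did not differ detectably between the populations, and those that did were more often lower in Lu-pos cells. By limma with the pool as a block and adjustment over all 22180 genes, 9 genes were lower in Lu-pos cells (20.5%), namely Stat2, Ifi35, Isg20, Oas2, Usp18, Bst2, Ifitm3, Irf1 and Ifitm2, and 3 were higher (6.82%), namely Ifngr1, Samhd1 and Ifit2. Over all genes 7.19% were lower and 4.35% higher. The counts by role below are to be read beside these same shares, and each role holds only 4 to 10 measured genes. Among genes above the background level, 9 of the 34 listed genes were lower (26.5%) and 2 higher (5.88%), beside 13.7% and 8.21% of all such genes. The median log2 fold change of the 44 genes was -0.10, beside -0.02 over all genes tested and -0.05 over those above background. The 7 Lu-pos values all lay above the 7 Lu-neg values for 1 gene, Ifngr1 (2.27% of the genes, 1.34% over all genes), and all below them for 3 genes, Isg20, Ifitm3 and Ifi35 (6.82%, and 1.67% over all genes). The genes and lists were chosen with earlier results of these arrays known, so these shares describe the list. The balance of directions depended on the scaling. Over all genes 964 were higher and 1595 lower, whereas 1761 were higher and 926 lower with the arrays scaled to 7 housekeeping genes, which added 0.13 to every log2 fold change, and 1176 and 1242 with Hprt left out of these. With the first of these scalings 6 listed genes were higher and 6 lower: Oas2, Ifitm2 and Usp18 lost their call, and Ifit1, Ifitm1 and Gbp3 were called higher.

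**Figure D2:**
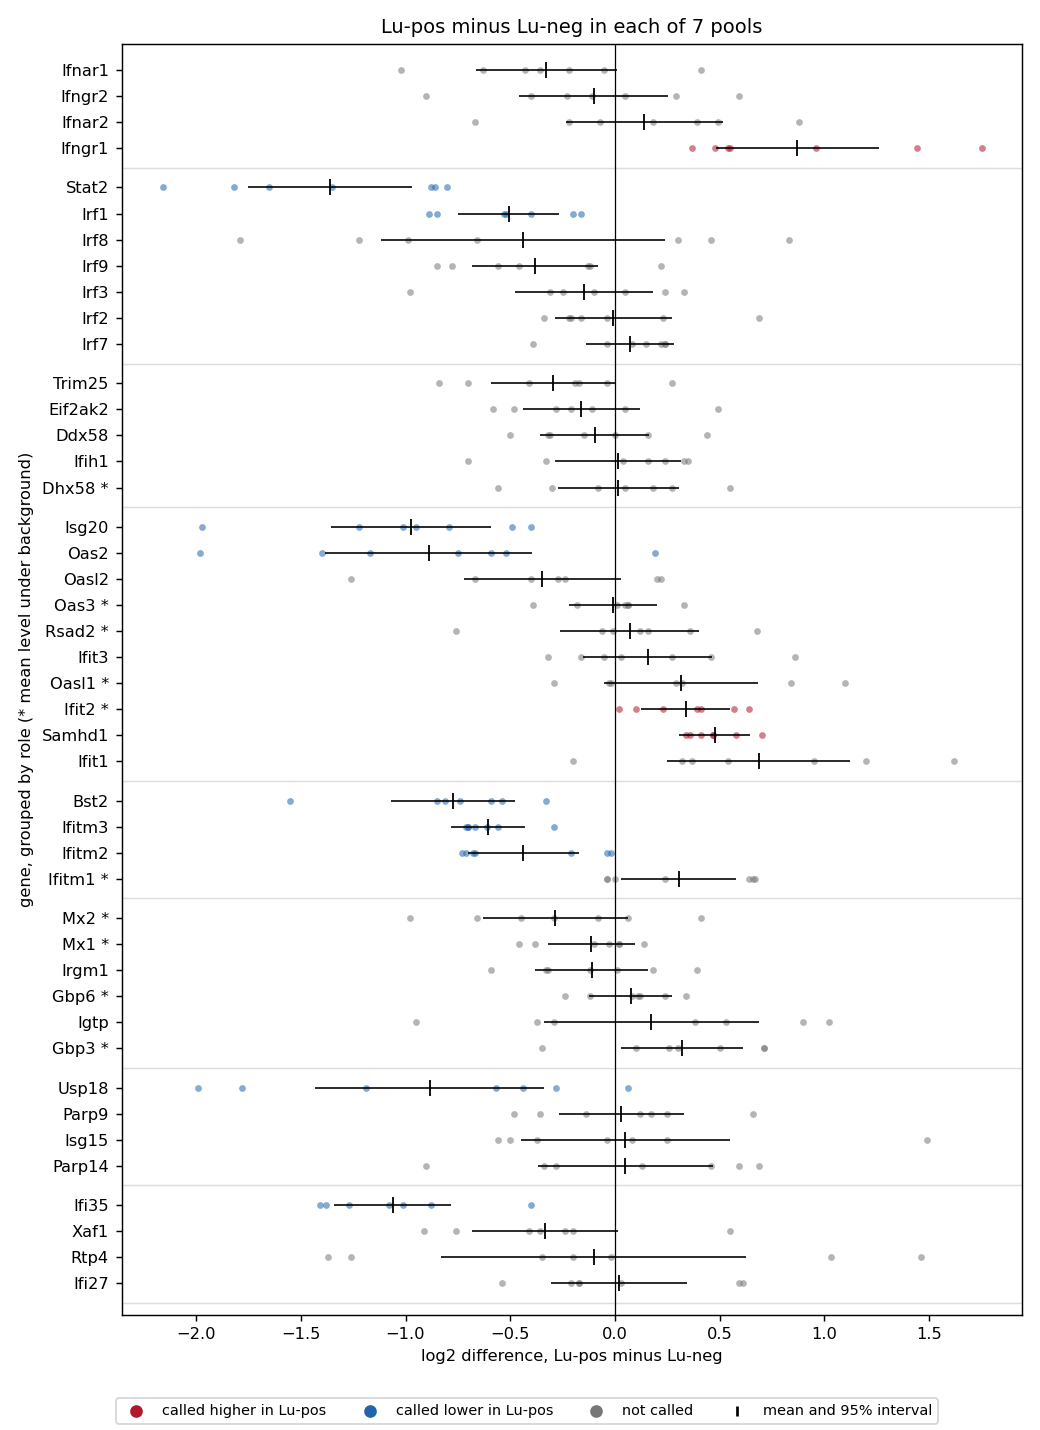
Log2 difference, Lu-pos minus Lu-neg, in each of the 7 pools (points) for the 44 genes, grouped by role, with the mean and its 95% interval from limma as a vertical and a horizontal black line; an asterisk marks genes whose mean level was under background. Points of the 9 genes called lower (blue) and the 3 called higher (red) lie to 1 side of 0 in nearly all pools, while those of most other genes fall on both sides.

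Of 4 receptor chains, 1 was called higher and none lower. Ifngr1, the ligand-binding chain for interferon gamma, was 1.83-fold higher in Lu-pos cells. The log2 levels of Ifngr1 in pools 1 to 7 were 6.02, 6.81, 6.15, 6.72, 6.77, 6.33 and 7.09 in Lu-neg and 7.46, 7.29, 7.90, 7.26, 7.32, 7.29 and 7.46 in Lu-pos cells. Every Lu-pos value lay above every Lu-neg value, and the gap within a pool ran from 0.37 in pool 7 to 1.75 in pool 3 (log2 fold change 0.87, standard error 0.17, adjusted p = 0.0113). The call held when any 1 pool was left out, but neither pools 1 to 3 alone (adjusted p = 0.0678) nor pools 4 to 7 alone (adjusted p = 0.0589) gave one. The signal-transducing chain Ifngr2 was not called, at 6.87 ± 0.14 in Lu-neg and 6.77 ± 0.40 in Lu-pos cells (SD, n = 7 each), with a log2 fold change of -0.10 (95% interval -0.46 to 0.26). Nor were the type I receptor genes Ifnar1 (-0.33, 95% interval -0.67 to 0.01) and Ifnar2 (0.14, 95% interval -0.23 to 0.51). The Ifnar1 level was below that of Lu-neg cells in 6 of 7 pools.

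Of 7 transcription factors, 2 were lower in Lu-pos cells and none was higher. Stat2, the STAT protein particular to type I and type III interferon signaling, had the largest fold change of the 44 genes and was 2.57-fold lower. Stat2 was measured at log2 levels of 6.69, 6.34, 6.94, 6.03, 6.0, 5.97 and 5.61 in Lu-neg pools 1 to 7 and of 5.89, 4.52, 4.78, 4.38, 5.14, 4.62 and 4.73 in Lu-pos pools 1 to 7. It was lower in Lu-pos in 7 of 7 pools, and the groups overlapped through the Lu-pos array of pool 1, at 5.89, and the Lu-neg array of pool 7, at 5.61 (log2 fold change -1.36, standard error 0.17, adjusted p = 0.00155). Irf1, an activator that is itself induced by interferon gamma, was 1.42-fold lower. For Irf1, the 7 Lu-neg arrays gave log2 levels of 6.23, 6.24, 6.26, 6.18, 5.44, 6.28 and 6.0, in the order of the pools, and the 7 Lu-pos arrays 5.70, 5.72, 6.06, 5.33, 5.28, 5.88 and 5.11. The pool 5 Lu-neg level, 5.44, lay below the next one, 6.0, the groups overlapped, and Lu-pos was lower in all 7 pools, with differences of -0.89 to -0.16 (log2 fold change -0.51, standard error 0.11, adjusted p = 0.0149). Without the pool as a block Irf1 was not called (adjusted p = 0.0672). Irf9, the DNA-binding partner of Stat2, had a log2 fold change of -0.38 and missed the threshold (adjusted p = 0.108, lower in 6 of 7 pools), and it passed when pool 7 was left out (adjusted p = 0.0436). Irf2, which antagonises Irf1 at shared sites, was at 6.96 against 6.96 in Lu-neg and Lu-pos cells (95% interval -0.29 to 0.27 for the difference), Irf3, the factor that RNA sensors activate, at 6.48 against 6.34 (95% interval -0.47 to 0.18) and Irf7, an amplifier of type I interferon production, at 4.78 against 4.85 (95% interval -0.14 to 0.28). Irf8, a factor of myeloid cells, was read by 2 probe sets. The brighter one varied between 3.68 and 5.86 over the 14 arrays and gave a mean difference of -0.44 (standard error 0.32). The dimmer one, under the background level, gave -0.51 (standard error 0.17). Both standard errors are from limma, fitted over all probe sets.

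None of the 5 genes of cytoplasmic RNA sensing was called by limma, and 1 had an unadjusted p under 0.05. Ddx58, which encodes the sensor RIG-I, was at 6.51 ± 0.15 in Lu-neg and 6.41 ± 0.30 in Lu-pos cells (SD, n = 7 each), and Ifih1, which encodes the sensor MDA5, at 6.57 ± 0.16 in Lu-neg and 6.58 ± 0.30 in Lu-pos cells (SD, n = 7 each). Their log2 fold changes were -0.10 (95% interval -0.36 to 0.16) and 0.01 (95% interval -0.29 to 0.31). In Lu-pos cells Ifih1 was lowest in pool 4, at 5.96, with the other 6 arrays between 6.47 and 6.83. The RNA-activated kinase gene Eif2ak2 was at 5.24 against 5.08 (log2 fold change -0.16, 95% interval -0.44 to 0.12). Trim25, a ubiquitin ligase that acts on RIG-I, had a log2 fold change of -0.30 and was lower in 6 of 7 pools (adjusted p = 0.214). Dhx58, a helicase that modulates both sensors, had means of 3.05 against 3.06, under the background level.

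Of 10 effectors that act on RNA or nucleotides, 2 were lower and 2 higher in Lu-pos cells. Isg20, an exonuclease, was 1.97-fold lower in Lu-pos cells. In Lu-neg pools 1 to 7 the log2 levels of Isg20 were 7.03, 7.01, 7.41, 6.57, 7.12, 6.82 and 6.77, and in the matching Lu-pos pools 6.08, 6.22, 5.44, 6.08, 6.11, 5.60 and 6.37. No Lu-pos value reached the lowest Lu-neg value, 6.57 in pool 4, and the smallest difference within a pool was -0.40 (log2 fold change -0.98, standard error 0.17, adjusted p = 0.0062). Oas2, a synthetase of the oligoadenylates that activate RNase L, was 1.85-fold lower. The log2 levels of Oas2 in pools 1 to 7 were 5.55, 5.38, 5.84, 4.98, 4.64, 5.01 and 4.39 in Lu-neg and 4.15, 4.63, 3.86, 4.46, 4.05, 3.84 and 4.58 in Lu-pos cells. Lu-pos was lower in 6 of 7 pools, and pool 7 went the other way, by 0.19 (log2 fold change -0.89, standard error 0.22, adjusted p = 0.0296). The call of Oas2 was lost without pool 1, 2, 3 or 6, at adjusted p of 0.0813, 0.0616, 0.0547 and 0.0745, and with the scaling to 7 housekeeping genes (adjusted p = 0.0595).

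Samhd1, a hydrolase that lowers the supply of deoxynucleotides, was 1.39-fold higher in Lu-pos cells. Samhd1 was measured at log2 levels of 8.26, 7.99, 7.95, 7.80, 7.87, 7.97 and 8.02 in Lu-neg pools 1 to 7 and of 8.73, 8.69, 8.53, 8.21, 8.21, 8.44 and 8.38 in Lu-pos pools 1 to 7. It was higher in 7 of 7 pools by between 0.34 and 0.70, and the groups overlapped through the Lu-neg array of pool 1, at 8.26, above the Lu-pos arrays of pools 4 and 5, both at 8.21 (log2 fold change 0.48, standard error 0.07, adjusted p = 0.00406). The call of Samhd1 was kept when any 1 pool was left out. Ifit2, a member of the IFIT family of RNA-binding antiviral proteins, was called higher, but all 14 of its values lay under the background level. For Ifit2, the 7 Lu-neg arrays gave log2 levels of 2.60, 2.66, 2.80, 2.79, 2.61, 2.55 and 2.52, in the order of the pools, and the 7 Lu-pos arrays 3.24, 3.23, 2.90, 3.18, 2.84, 2.57 and 2.93. Its difference was above 0 in 7 of 7 pools and as small as 0.02 in pool 6 (log2 fold change 0.34, standard error 0.10, adjusted p = 0.0498). The call of Ifit2 was lost without pool 1, 2, 3, 4, 5 or 7, with adjusted p between 0.0558 and 0.119.

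Ifit1, which binds capped foreign RNA, lay just outside the threshold in the same direction. In Lu-neg pools 1 to 7 the log2 levels of Ifit1 were 4.21, 3.97, 3.42, 3.79, 3.77, 4.0 and 3.92, and in the matching Lu-pos pools 4.75, 4.29, 5.04, 4.16, 4.72, 3.80 and 5.12. Its level was higher in Lu-pos in 6 of 7 pools, with pool 6 at -0.20 (log2 fold change 0.69, standard error 0.20, adjusted p = 0.0515). The Lu-neg mean of Ifit1, 3.87, lay close to the background level of 3.73. Ifit1 passed in 8 of the 20 alternatives. Among these were the fits without pool 6 (adjusted p = 0.0235), without the block (adjusted p = 0.033) and with each scaling to housekeeping genes (adjusted p = 0.0245 and 0.039). It stayed uncalled when any other single pool was left out (adjusted p up to 0.126). Nor was it called with array weights, or in pools 1 to 3 or pools 4 to 7 alone. Ifit3, a further IFIT gene, was at 5.15 against 5.31 and had a log2 fold change of 0.16 (95% interval -0.15 to 0.47). The difference between these IFIT genes was not tested. Oasl2 and Oasl1, relatives of the oligoadenylate synthetases, had log2 fold changes of -0.35 and 0.32, neither of them called. Oas3 (3.01 against 3.0) and Rsad2 (3.67 against 3.74), which encodes viperin, had means over all arrays under the background level, as did Oasl1.

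Of 4 membrane restriction factors, 3 were lower in Lu-pos cells, where 7.19% of all genes were lower. Bst2 encodes tetherin, which holds budding virus at the cell surface, and was 1.71-fold lower. The log2 levels of Bst2 in pools 1 to 7 were 7.10, 7.51, 7.22, 7.22, 6.66, 7.07 and 7.25 in Lu-neg and 6.77, 6.70, 5.67, 6.63, 5.92, 6.53 and 6.40 in Lu-pos cells. Lu-pos was lower in 7 of 7 pools, and the overlap of the groups came from the Lu-neg array of pool 5, at 6.66, which lay below the Lu-pos arrays of pools 1 and 2 (log2 fold change -0.77, standard error 0.13, adjusted p = 0.0058). Ifitm3, which blocks the entry of virus through endosomes, was 1.52-fold lower. Ifitm3 was measured at log2 levels of 10.27, 10.26, 10.02, 10.51, 10.71, 10.49 and 10.64 in Lu-neg pools 1 to 7 and of 9.98, 9.56, 9.35, 9.95, 10, 9.88 and 9.94 in Lu-pos pools 1 to 7. Lu-pos was lower in 7 of 7 pools and the groups did not overlap, though the highest Lu-pos value, 10, and the lowest Lu-neg value, 10.02, nearly met (log2 fold change -0.61, standard error 0.08, adjusted p = 0.00164). Pools 4 to 7 alone gave a call for Bst2 and for Ifitm3, and pools 1 to 3 alone gave none (adjusted p = 0.13 and 0.142).

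Ifitm2, a close relative of Ifitm3, was 1.35-fold lower. For Ifitm2, the 7 Lu-neg arrays gave log2 levels of 9.77, 10.11, 9.68, 10.12, 10.05, 10.19 and 10.18, in the order of the pools, and the 7 Lu-pos arrays 9.09, 9.40, 9.47, 10.10, 9.32, 10.15 and 9.51. In pools 4 and 6 the populations were level, with differences of -0.02 and -0.04, while the other 5 pools lay between -0.73 and -0.21 (log2 fold change -0.44, standard error 0.12, adjusted p = 0.0431). The call of Ifitm2 was lost without the block (adjusted p = 0.109), without pool 1, 2, 3, 5 or 7 (adjusted p between 0.06 and 0.107), with either scaling to housekeeping genes (adjusted p = 0.142 and 0.0888) and with scaling to the 75th percentile (adjusted p = 0.0644). Ifitm1, at 3.39 against 3.69, had a mean over all arrays under the background level and a log2 fold change of 0.30 (adjusted p = 0.162), with Lu-pos higher in 4 of 7 pools and lower in 2. It was called higher with the scaling to 7 housekeeping genes (adjusted p = 0.0498).

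None of the 6 measured GTPases of the Mx, guanylate-binding and immunity-related families was called by limma, and 1 had an unadjusted p under 0.05. Mx1 and Mx2, which trap incoming viral particles, had means of 2.67 against 2.55 and 3.23 against 2.94 in Lu-neg and Lu-pos cells, under the background level. In most inbred laboratory strains Mx1 is defective. Gbp3 (3.46 against 3.77) and Gbp6 (2.84 against 2.91), which attack the vacuoles of intracellular pathogens, had means over all arrays under the background too. Gbp3 was higher in Lu-pos in 6 of 7 pools (log2 fold change 0.32, adjusted p = 0.17) and was called without pool 7 (adjusted p = 0.0423) and with the scaling to 7 housekeeping genes (adjusted p = 0.0459). Igtp and Irgm1, immunity-related GTPases induced by interferon gamma, lay above background, with log2 fold changes of 0.17 (95% interval -0.34 to 0.69) and -0.11 (95% interval -0.38 to 0.16).

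Of 4 genes of the ubiquitin-like modifier Isg15 and of protein ADP-ribosylation, 1 was called lower. Isg15, which is conjugated to proteins after interferon exposure, was at 5.09 ± 0.51 in Lu-neg and 5.14 ± 0.39 in Lu-pos cells (SD, n = 7 each), with a log2 fold change of 0.05 (95% interval -0.45 to 0.55). In pool 3 Isg15 was 1.49 higher in Lu-pos cells, and in the other 6 its difference ran from -0.56 to 0.25. Usp18, which removes Isg15 from proteins and restrains signaling from the type I receptor, was 1.85-fold lower in Lu-pos cells. In Lu-neg pools 1 to 7 the log2 levels of Usp18 were 6.2, 5.05, 6.05, 5.43, 4.14, 4.25 and 4.24, and in the matching Lu-pos pools 4.21, 4.61, 4.27, 4.24, 3.86, 4.31 and 3.67. In Lu-neg cells the 4 pools 1 to 4 lay between 5.05 and 6.2 and pools 5 to 7 between 4.14 and 4.25, whereas no Lu-pos value exceeded 4.61 (log2 fold change -0.88, standard error 0.24, adjusted p = 0.0459). The call of Usp18 was lost without the block (adjusted p = 0.102), without pool 1, 2, 3, 4 or 7 (adjusted p between 0.0676 and 0.112) and with the scaling to 7 housekeeping genes (adjusted p = 0.0598). Parp9 and Parp14, members of the ADP-ribosyltransferase family, were at 6.46 against 6.49 and 5.77 against 5.82, with log2 fold changes of 0.03 (95% interval -0.27 to 0.33) and 0.05 (95% interval -0.37 to 0.47). The difference between the changes of Usp18 and Isg15 was not tested.

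Of 4 further induced genes 1 was called. Ifi35, which encodes a leucine zipper protein of the cytoplasm, was 2.09-fold lower in Lu-pos cells. The log2 levels of Ifi35 in pools 1 to 7 were 7.71, 7.35, 7.46, 7.55, 7.49, 7.97 and 8.06 in Lu-neg and 6.70, 6.47, 6.05, 6.47, 7.09, 6.59 and 6.79 in Lu-pos cells. No Lu-pos value reached the lowest Lu-neg value, 7.35 in pool 2, and Lu-pos was lower in 7 of 7 pools with differences of -1.41 to -0.40 (log2 fold change -1.06, standard error 0.12, adjusted p = 0.00108). A second, dimmer probe set of Ifi35 gave a mean difference of -0.73 (standard error 0.15 from limma, fitted over all probe sets), lower in 7 of 7 pools. Ifi35 and Stat2 were the 2 genes whose call was kept under all 20 alternatives, with pools 1 to 3 alone and pools 4 to 7 alone among them. Xaf1, a binding partner of the apoptosis inhibitor XIAP, had a log2 fold change of -0.33 (adjusted p = 0.239, lower in 6 of 7 pools) and was called without pool 2 (adjusted p = 0.0387). Rtp4, a chaperone of receptors, varied widely, between 4.30 and 6.72 over the 14 arrays, with a log2 fold change of -0.10 (95% interval -0.83 to 0.63). Ifi27, a mitochondrial protein gene, was at 8.12 ± 0.16 in Lu-neg and 8.14 ± 0.30 in Lu-pos cells (SD, n = 7 each) (95% interval -0.30 to 0.34 for the difference).

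**Figure D3:**
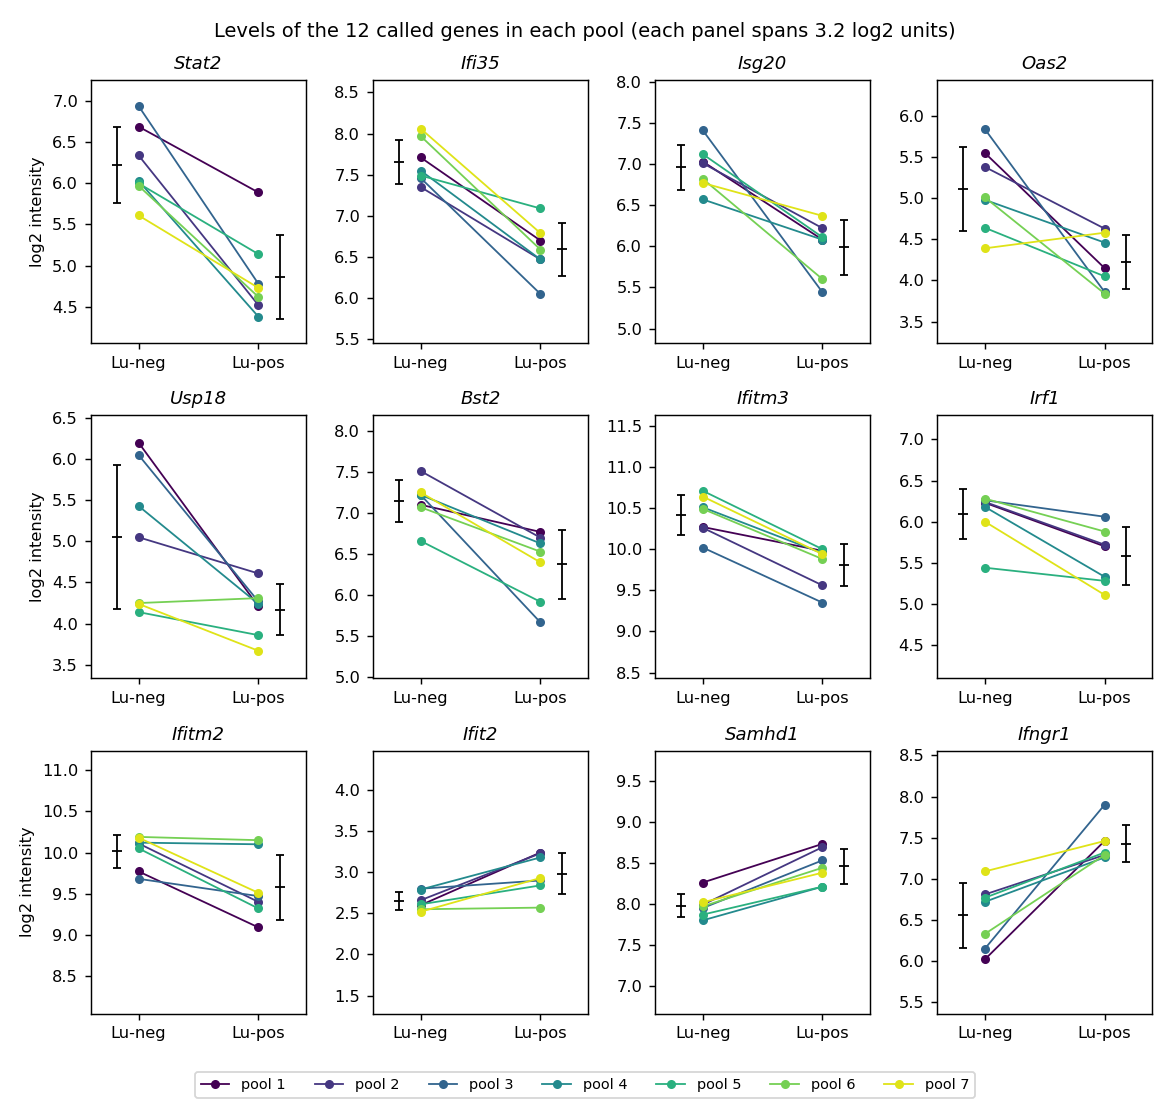
Log2 intensity of the 12 called genes in Lu-neg and Lu-pos cells, with a line for each of the 7 pools and the mean ± SD beside the points; every panel spans the same number of log2 units, and the axes start above 0. The lines of Stat2, Ifi35, Isg20, Bst2, Ifitm3 and Irf1 fall in all 7 pools, those of Ifngr1 and Samhd1 rise in all 7, and the Usp18 levels of Lu-neg pools 5 to 7 lie with the Lu-pos levels.

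The same fit gave a test of the spread between pools, after the difference between the populations was taken out. No gene of the 44 passed this test at an adjusted p under 0.05 by the moderated F of limma, where 66 of 22180 genes did (0.298%), and 9 of the 44 had an unadjusted p under 0.05 (20.5%, beside 12.4% of all genes). All 9 lay above background, where they made up 26.5% of the 34 listed genes, beside 19.8% of all such genes. The 6 genes with the smallest adjusted p were Irf9, Irf7, Oasl2, Ifitm3, Trim25 and Xaf1. Irf9 was measured at log2 levels of 6.40, 6.17, 6.15, 5.28, 5.55, 6.0 and 5.30 in Lu-neg pools 1 to 7 and of 6.28, 5.71, 5.59, 4.50, 5.42, 5.15 and 5.52 in Lu-pos pools 1 to 7. In both populations the Irf9 levels of pool 1 were the highest and those of pool 4 the lowest (adjusted p = 0.194 for the pool effect). For Irf7, the 7 Lu-neg arrays gave log2 levels of 5.15, 4.74, 5.38, 4.72, 4.41, 4.52 and 4.52, in the order of the pools, and the 7 Lu-pos arrays 4.76, 4.98, 5.46, 4.96, 4.63, 4.48 and 4.67. Irf7 was highest in pool 3 in both populations (adjusted p = 0.196). In Lu-neg pools 1 to 7 the log2 levels of Oasl2 were 5.45, 5.87, 5.39, 5.22, 4.14, 5.09 and 4.25, and in the matching Lu-pos pools 5.18, 5.20, 5.15, 3.96, 4.36, 4.69 and 4.45. The first 3 pools lay at 5.15 or higher in both populations and pools 5 and 7 at 4.45 or lower (adjusted p = 0.259).

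The log2 levels of Trim25 in pools 1 to 7 were 7.07, 7.22, 7.15, 6.72, 6.56, 6.93 and 6.75 in Lu-neg and 7.34, 7.05, 7.11, 6.02, 6.15, 6.09 and 6.56 in Lu-pos cells. In both populations pools 1 to 3 were the 3 highest, and the next highest level was 6.56 in Lu-pos and 6.93 in Lu-neg cells (adjusted p = 0.289). Xaf1 was measured at log2 levels of 6.49, 5.23, 5.80, 5.63, 6.32, 5.87 and 5.47 in Lu-neg pools 1 to 7 and of 6.29, 5.78, 5.56, 5.27, 5.91, 4.96 and 4.71 in Lu-pos pools 1 to 7. Pool 1 was highest in both populations (adjusted p = 0.289). For Ifitm3, given above with the membrane factors, pool 3 was lowest in both populations and pool 5 highest (adjusted p = 0.265). A pool carries its animals, their strain, the sort and the hybridisation together, and these cannot be told apart.

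**Figure D4:**
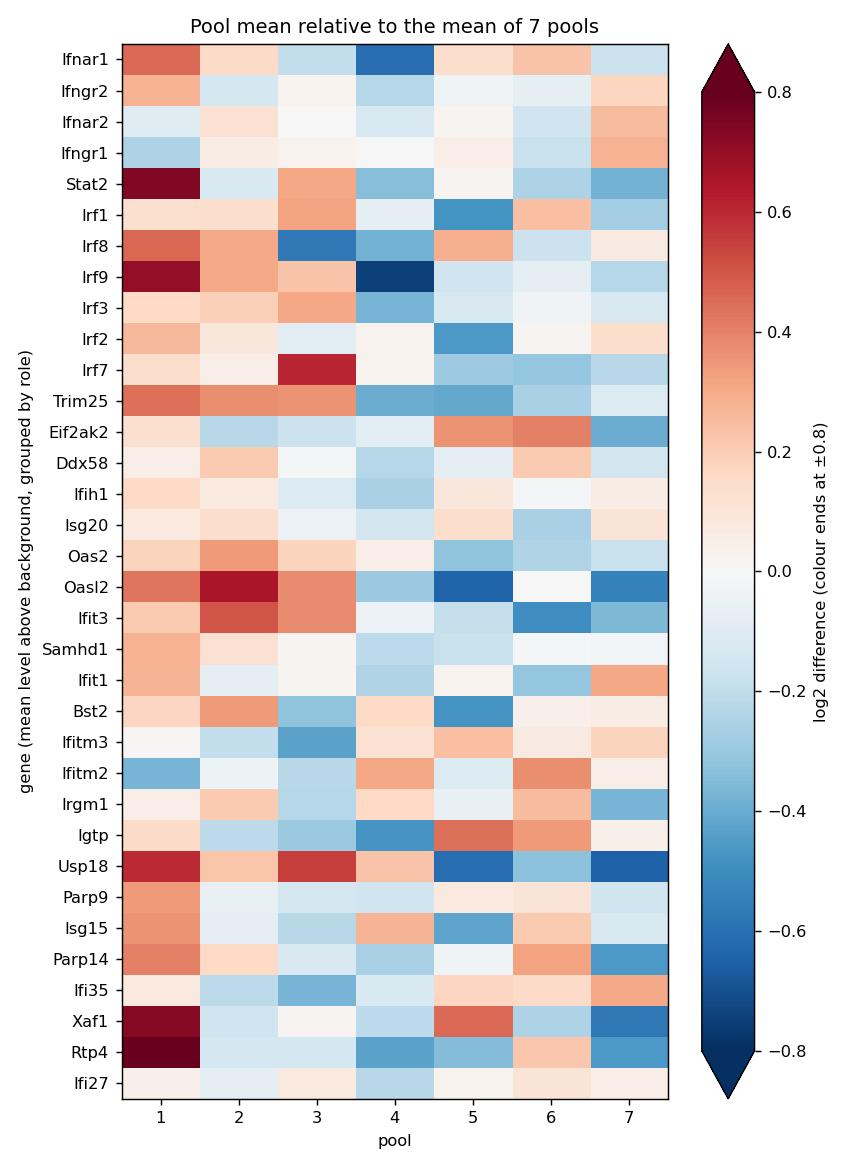
Mean of the Lu-neg and Lu-pos levels of each pool minus the mean over the 7 pools, on the log2 scale, for the 34 genes with a mean level above background; red is above and blue below the gene's mean, and the colour scale ends at ±0.8. Trim25, Oasl2 and Ifit3 are red in pools 1 to 3 and blue or near white in pools 4 to 7, whereas Ifitm3 and Ifitm2 are blue or near white in pools 2 and 3.

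The population difference in pools 1 to 3 and in pools 4 to 7 was set side by side. The 12 genes were called on all 7 pools together, and 10 of them had the same sign in every pool, so the sign they share between the sets is no further evidence of it. The mean difference of Stat2 was -1.59 in pools 1 to 3 and -1.19 in pools 4 to 7, and that of Ifi35 -1.10 and -1.03. Usp18 (-1.40 and -0.49) and Oas2 (-1.38 and -0.52) lay farther from 0 in the first set, as did Ifngr1 (1.22 and 0.60). Among the uncalled genes Igtp was at 0.77 and -0.27 and Rtp4 at 0.36 and -0.45, opposite in sign. The median over the 44 genes was 0.04 in pools 1 to 3 and -0.22 in pools 4 to 7, beside 0.01 and -0.05 over all genes. The division of the pools was seen in these arrays and is given by no label, so these differences between the sets were not tested. Alone, pools 1 to 3 called 0 of the 44 genes higher and 3 lower, namely Stat2, Ifi35 and Oas2, and pools 4 to 7 called 0 higher and 4 lower, namely Stat2, Ifi35, Bst2 and Ifitm3. Of all 22180 genes, pools 1 to 3 alone called 459 higher and 489 lower, and pools 4 to 7 alone 296 and 515. With so few calls over all genes, 0 of 44 higher is no trait of the list.

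**Figure D5:**
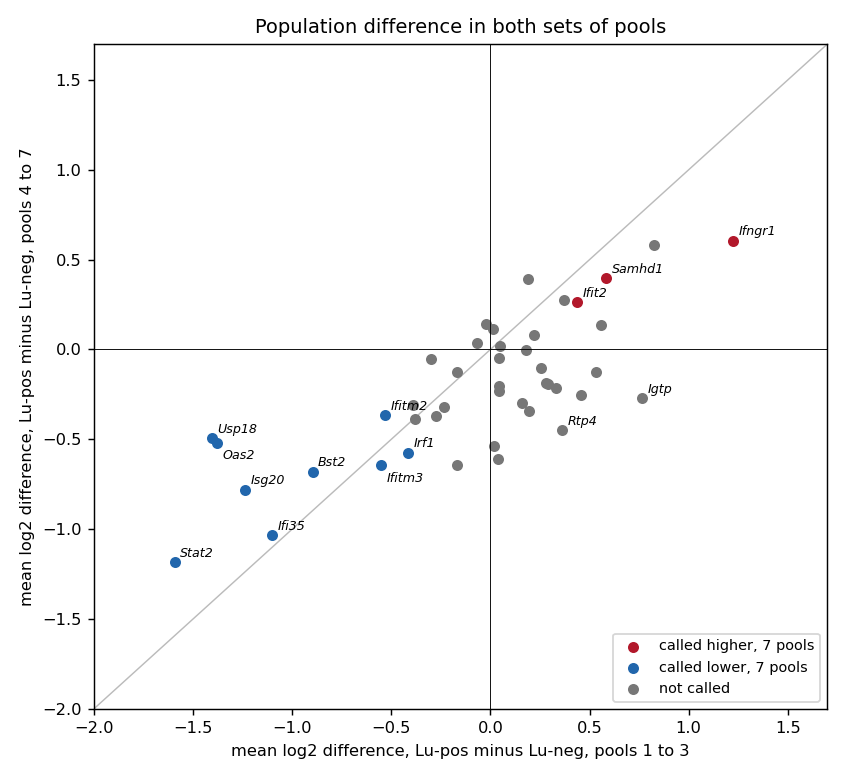
Mean log2 difference, Lu-pos minus Lu-neg, of each of the 44 genes in pools 1 to 3 (horizontal axis) and pools 4 to 7 (vertical axis), with the diagonal in grey. The genes called over all pools (9 lower in blue, 3 higher in red) were chosen on these same arrays, and among them Usp18, Oas2 and Ifngr1 lie farther from 0 in pools 1 to 3.

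Genes of the interferon system outside the list were examined in the same fit. Of 99 measured, 5 were higher (5.05%) and 11 lower (11.1%) in Lu-pos cells, beside 4.35% and 7.19% of all genes. All of these lay above background, where they made up 7.25% and 15.9% of 69 genes, beside 8.21% and 13.7% of all such genes. In the test of the spread between pools 1 of the 99, Ly6e, passed (moderated F of limma, adjusted p = 0.00497), where 0.298% of all genes did. An unadjusted p under 0.05 in that test was found for 21 of the 99 (21.2%, beside 12.4% of all genes). The interferon genes themselves gave little signal, with 4 of 9 above background and Ifna4 called higher (0.30, standard error 0.08, adjusted p = 0.0457), which was the smallest rise of the 5. Lower were Iigp1, an immunity-related GTPase induced by interferon gamma (-1.41, standard error 0.30, adjusted p = 0.0145), and Socs3, a feedback inhibitor of JAK kinases (-1.27, standard error 0.15, adjusted p = 0.00118). So were Lgals9, which encodes galectin-9 (-1.11, standard error 0.15, adjusted p = 0.00182), and Sting1, the adaptor of DNA sensing (-0.87, standard error 0.15, adjusted p = 0.00529). Jak2, a kinase bound to the interferon gamma receptor, was lower too (log2 fold change -0.74, standard error 0.16, adjusted p = 0.0159). The largest rises were those of the inflammatory caspase genes Casp4 (0.92, standard error 0.22, adjusted p = 0.028) and Casp1 (0.85, standard error 0.18, adjusted p = 0.016), followed by Traf6, an adaptor ligase downstream of Toll-like receptors (0.54, standard error 0.13, adjusted p = 0.0236), and Stat3, a STAT protein activated by interleukin-6 type cytokines (0.40, standard error 0.07, adjusted p = 0.00559). Of the kinases that pair with the type I receptor, Jak1 had a log2 fold change of 0.02 (adjusted p = 0.95) and Tyk2 of -0.37 (adjusted p = 0.22).

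Markers of the populations and of other cells are given beside these results. The 4 measured markers of hormone-sensing cells, Esr1, Pgr, Foxa1 and Wnt4, were lower in Lu-pos cells and the 5 luminal progenitor markers higher. Of 7 endothelial markers 1, Vwf, was called, lower in Lu-pos cells (-1.20, standard error 0.15, adjusted p = 0.00155). The log2 of the summed level of the 7 ran from 7.32 to 9.40 in Lu-neg and from 6.40 to 9.26 in Lu-pos arrays. The median over the 7 markers of the mean log2 difference of each was 0.36 in pools 1 to 3 and -0.82 in pools 4 to 7. The endothelial genes Pecam1 and Cdh5 lay above background in the mean. None of 8 basal markers was called (2 at an unadjusted p under 0.05), with a log2 summed level of 7.33 to 10.89 in Lu-neg and 8.60 to 10.10 in Lu-pos arrays. These 2, Krt17 (1.59, standard error 0.61) and Oxtr (0.62, standard error 0.19), were higher in Lu-pos cells, and 7 of the 8 had a log2 fold change above 0. Of 8 fibroblast and adipocyte markers (log2 summed level 8.55 to 11.31 and 9.25 to 10.97) Dcn was called lower (-0.49, standard error 0.10, adjusted p = 0.0117). Dcn also passed the test of the pool effect (moderated F of limma, adjusted p = 0.000305). The direction of Dcn was not that of most of these markers, as 6 of the 8 had a log2 fold change above 0. CD31, which was stained for the sort, is the protein that Pecam1 encodes, and CD45 that of Ptprc. The part of these cells in the values of the listed genes was not tested.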

How the data were processed

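RNA of 14 sorted samples, 7 Lu-neg and 7 Lu-pos, was amplified from 0.5 ng and hybridised to Affymetrix Mouse Gene 2.1 ST arrays. The deposited values are log2 probe set levels that the authors made with RMA in Affymetrix Expression Console, which sets all arrays to a common distribution, so a shift shared by all genes cannot be seen. The number of arrays limits the precision. Of 41345 probe sets, 23521 had 1 gene symbol, 1820 several and 16004 none. The brightest probe set stood for each of 22180 genes. The comparison of the populations used limma 3.58.1 (R 4.3.3) with the pool as a block and Benjamini-Hochberg adjustment over all 22180 genes, at an adjusted p under 0.05, and the pool effect was the moderated F on the 6 pool terms. The series' design text calls the samples paired, and their titles are numbered 1 to 7 in both populations. Samples of 1 number were taken as a pair from 1 pool, which no source used here states for each number. Deviations from the group means correlated within pools by 0.17 to 0.26, though Lu-neg and Lu-pos of pool 7 (0.166) correlated less than with another pool (0.215). With the block, p-values of the population comparison rest on the spread of the Lu-pos minus Lu-neg difference between pools, with variances moderated over all genes. Those of the pool effect concern the spread between pools. Every listed gene was named, array values were given for called genes and for the 6 with the smallest adjusted p of the pool effect, and the 4 largest rises and falls of other pathway genes were named. Jak1, Jak2, Tyk2, Ifna4, Ly6e and Ifit1 were added after their values were seen. The genes and lists were chosen with earlier results of these data known. Promoters were read from RefSeq for GRCm38.p6 by symbol. Alternatives covered scaling, filters, probe sets, array weights, the block, left-out pools and the t-test of the study's methods.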

Additional observations from a re-analysis of the deposited data

Results flagged for a closer look

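In each population the 7 levels of each of the 44 genes were examined for a single sample far from the other 6, and 5 of 88 sets held one, where chance gives about 1 in 20. Ifngr1 reached 7.90 in the Lu-pos sample of pool 3, with the next level at 7.46. Irf1 was at 5.44 in the Lu-neg sample of pool 5, with the next level at 6.0. Ifih1 was at 5.96 in the Lu-pos sample of pool 4, with the next at 6.47. Rsad2 reached 4.45 in the Lu-neg sample of pool 3, with the next at 3.65. Mx1 reached 2.99 in the Lu-neg sample of pool 4, with the next at 2.73, all under the background level.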

How the results depend on the processing

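Stat2 and Ifi35 were called in all 20 alternatives, no called gene changed direction in any of them, and 20 of the 32 uncalled genes changed sign in at least 1. Without the pool as a block, 2038 genes were called in place of 2559, 3 listed genes were higher and 6 lower (9 in all), 11 other pathway genes were called in place of 16, and Ifit1 gained a call while Irf1, Ifit2, Ifitm2 and Usp18 lost theirs. Leaving out 1 pool gave 1910 to 2207 called genes, 2 to 4 listed genes higher, 6 to 8 lower and 8 to 12 in all, 12 to 15 other pathway genes, and 26 to 61 genes with a pool effect. Pools 1 to 3 alone called 948 genes, with 0 listed genes higher and 3 lower (3 in all), and pools 4 to 7 alone called 811, with 0 higher and 4 lower (4 in all). Both sets called 0 genes for the pool effect. The t-test of the study's methods with adjustment called 1196 genes and 1 listed gene higher and 5 lower (6 in all), and without adjustment but with a 1.5-fold minimum 1761 genes, 2 higher and 7 lower. Scaling to 7 housekeeping genes called 6 listed genes higher and 6 lower, with 65.5% of all calls higher in place of 37.7%, and moved the median of all genes to 0.11. Without Hprt 48.6% of all calls were higher, and 3 listed genes were higher and 8 lower. A variance trend with robust estimation called 117 genes for the pool effect in place of 66, and array weights called 2 listed genes higher and 7 lower. The causes were not tested. The mean level of 10 of the 44 genes, Ifit2 among them, lay under the background level.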
